A study of Rattus norvegicus with 20 samples.

Results

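The genes described here are nuclear genes, most of them for subunits of the 5 complexes of oxidative phosphorylation. They were followed in the amygdala's central nucleus (CeA) in P rats, an alcohol-preferring line selectively bred for high ethanol intake. The members are all genes whose single symbol on the array begins with Nduf (complex I), Sdha to Sdhd (complex II), Uqcr (complex III), Cox4 to Cox8 (complex IV) or Atp5 (complex V), without the assembly factors. They number 80 of the 14217 genes that the array names with 1 symbol, with 36 in complex I, 4 in complex II, 7 in complex III, 17 in complex IV and 16 in complex V. Each gene was read from the probe set with its highest mean over the 20 arrays. Of the 80 members, 74 lay above the filter on low values (a mean log2 value of 7.14), namely all members of complexes I, II, III and V and 11 of the 17 of complex IV. The 6 below it were Cox4i2, Cox6a2, Cox6b2, Cox7b2 and Cox8b, all genes of isoforms known from particular tissues, and the pseudogene Cox6c-ps1.

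The ethanol group (10 animals, 1 array each) had access to 15% and 30% ethanol during adolescence, and the water group (10 animals) had water only. All animals are P rats, so no non-preferring line enters any comparison, and the labels number the animals, so the spread given is that between animals. The total RNA was labelled from the 3' end and hybridised to an Affymetrix rat array, and the values are log2 signals. Genes of GABAergic neurons, which are not confined to the CeA, were well above the filter on all 20 arrays. Gad1, which makes GABA, ran from 14.04 to 14.44 and the vesicular GABA transporter gene Slc32a1 from 11.85 to 12.66. The peptide gene Sst had a median of 13.06. Prkcd, a marker of lateral CeA neurons, ran from 8.65 to 10.37. The 3 arrays with the lowest mean correlation with the others are called those that stood apart. Their number was set and not read from a gap in the values. They were water animal 18 (0.984), ethanol animal 5 (0.9882) and water animal 15 (0.989), and the next was ethanol animal 1 (0.9908). The members' movements across animals depend on these 3 arrays in part, as given below.

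Oxidative phosphorylation passes electrons from NADH through complex I, or from succinate through complex II, to ubiquinone, then through complex III and cytochrome c to complex IV, which reduces oxygen. The protons pumped on the way drive ATP synthesis by complex V. Neurons cover most of the energy cost of firing and synaptic transmission in this way, and a small set of core subunits, some of them encoded by mitochondrial DNA, carry the redox centres while the other subunits surround them.

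Factors known to act on respiratory genes can bind at promoters. Such binding was not measured here, and the promoters of 6 members are shown. Of these, 5 were chosen by a rule given below, and Cox5a because it did not move with the other members across animals. The windows run from 250 bases before to 50 bases after the start site, 5′ to 3′ on the gene's strand, from RefSeq on GRCr8. They belong to Ndufa2, a complex I subunit (chr18:28631835-28632134, minus strand), Sdhd, a membrane anchor of complex II (chr8:59850592-59850891, minus strand), Uqcrq, a complex III subunit (chr10:38089929-38090228, minus strand), Cox8a, a complex IV subunit (chr1:213833574-213833873, minus strand), Atp5mg, a membrane subunit of complex V (chr8:54130358-54130657, minus strand), and Cox5a, a complex IV subunit (chr8:66818034-66818333, plus strand). Capitals mark 4 searched letter strings on either strand: CGCATGCG (a core of the NRF1 motif), CCGGAAG (ETS factors such as GABPA, CTTCCGG on the other strand), AAGGTCA (estrogen-related receptors, TGACCTT) and AAGATGGC (YY1, GCCATCTT). The first 5 genes are, in each complex, the member with the most of the 4 strings, and among equals the one closest to the other members across animals.
Ndufa2: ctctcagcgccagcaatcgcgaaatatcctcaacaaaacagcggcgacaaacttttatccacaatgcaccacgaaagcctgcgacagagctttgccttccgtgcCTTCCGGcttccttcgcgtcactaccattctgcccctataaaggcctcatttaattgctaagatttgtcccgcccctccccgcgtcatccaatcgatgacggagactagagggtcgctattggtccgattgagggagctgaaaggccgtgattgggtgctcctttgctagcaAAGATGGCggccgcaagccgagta
Sdhd: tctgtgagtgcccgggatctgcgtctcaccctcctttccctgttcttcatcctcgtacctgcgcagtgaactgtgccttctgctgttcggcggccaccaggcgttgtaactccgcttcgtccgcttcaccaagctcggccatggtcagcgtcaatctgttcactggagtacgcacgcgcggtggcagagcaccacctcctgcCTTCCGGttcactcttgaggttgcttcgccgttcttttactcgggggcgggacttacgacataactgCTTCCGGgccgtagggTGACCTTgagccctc
Uqcrq: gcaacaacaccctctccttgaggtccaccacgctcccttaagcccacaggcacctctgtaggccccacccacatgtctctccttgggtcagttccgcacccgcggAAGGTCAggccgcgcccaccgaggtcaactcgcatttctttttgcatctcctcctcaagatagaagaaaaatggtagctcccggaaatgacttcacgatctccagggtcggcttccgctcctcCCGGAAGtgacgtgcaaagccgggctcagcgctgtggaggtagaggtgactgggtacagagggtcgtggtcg
Cox8a: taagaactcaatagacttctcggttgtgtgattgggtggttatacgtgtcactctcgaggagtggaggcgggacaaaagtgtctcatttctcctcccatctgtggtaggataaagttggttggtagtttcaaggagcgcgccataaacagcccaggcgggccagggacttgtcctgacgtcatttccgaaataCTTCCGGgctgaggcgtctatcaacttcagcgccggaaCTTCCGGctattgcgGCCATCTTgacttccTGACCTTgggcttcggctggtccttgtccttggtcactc
Atp5mg: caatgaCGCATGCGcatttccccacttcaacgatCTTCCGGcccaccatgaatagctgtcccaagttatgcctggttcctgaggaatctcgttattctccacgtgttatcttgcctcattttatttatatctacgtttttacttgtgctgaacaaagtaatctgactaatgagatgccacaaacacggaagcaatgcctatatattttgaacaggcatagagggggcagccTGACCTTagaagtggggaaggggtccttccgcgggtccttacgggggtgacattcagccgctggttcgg
Cox5a: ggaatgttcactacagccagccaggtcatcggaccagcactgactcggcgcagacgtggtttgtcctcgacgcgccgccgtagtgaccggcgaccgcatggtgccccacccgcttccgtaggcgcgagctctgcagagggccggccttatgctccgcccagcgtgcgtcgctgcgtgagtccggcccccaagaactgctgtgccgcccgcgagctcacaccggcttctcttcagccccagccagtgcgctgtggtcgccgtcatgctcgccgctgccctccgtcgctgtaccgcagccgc

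Of the 80 members, 72 had an entry in the promoter table, and 37 of these (51.4%) held at least 1 of the 4 strings, against 16.8% of all 33469 promoters and 27.4% of the 8496 promoters of genes past the filter. The ETS string stood in 20 member promoters (27.8%, against 8.75% of all promoters and 18.3% of those of genes past the filter). The YY1 string stood in 16 (22.2%, against 3.17% and 5.86%), the ERR string in 11 (15.3%, against 4.61% and 2.71%) and the NRF1 core in 6 (8.33%, against 1.66% and 3.86%). Among the promoters shown, Cox8a held 3 of the 4 strings, with the YY1 string 4 bases before the start site and ETS strings 57 and 19 bases before it. In Ndufa2 the YY1 string lay 26 bases after the start site, where its letters, which contain ATG, can coincide with a start codon. Cox5a held none of them. Neither did Cox7b, the member closest to the others across animals (mean r 0.599), while Ndufs4, 1 of the least close (0.092), held the YY1 string. A match describes the letters in the window and was not tied to any factor. Whether the strings go with the shared movement of the members was not tested.

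Between ethanol and water, no member differed past the threshold. In limma's moderated test with Benjamini-Hochberg adjustment over 18625 probe sets, 0 of the 74 members were called (background 0.0215%, 4 probe sets). At an unadjusted p under 0.05 it was again 0 of 74, against 12.8% of all probe sets. The differences ranged from -0.08 (Cox5a) to 0.12 (Atp5f1a) on the log2 scale, 39 members were higher and 35 lower in ethanol, and the median difference was 0.00237, against 0.0161 over all probe sets. The members varied less than most probe sets: the median SE of a difference was 0.0438 for members and 0.0624 overall. Over all members, the lowest bound of a 95% interval was 15.6% lower in ethanol (Cox5a) and the highest 17.7% higher (Atp5f1a), so larger differences lie outside the interval of every member. A p that misses the threshold does not show that a member was equal in both groups.

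**Figure D1:**
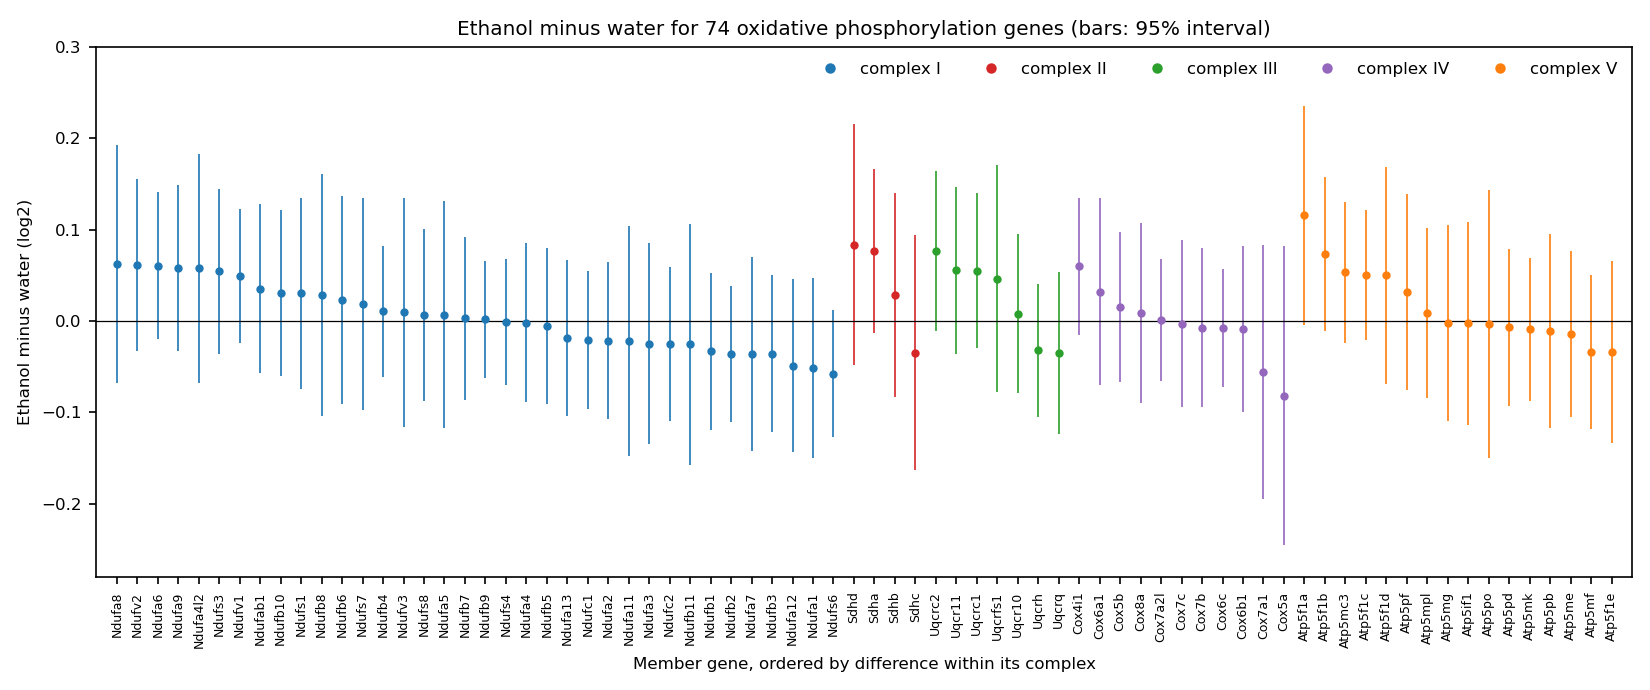
Ethanol minus water on the log2 scale (vertical axis) for the 74 members past the filter, ordered within complexes I to V (colours); points are differences and bars their 95% intervals. All intervals cross 0, and the differences lie between -0.08 and 0.12.

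By complex, the median difference was 0.00237 for complex I (19 of 36 members higher in ethanol), 0.0526 for complex II (3 of 4), 0.0462 for complex III (5 of 7), -0.00288 for complex IV (5 of 11) and -0.00222 for complex V (7 of 16). Arrays fall into 3 runs of consecutive accession numbers with 4, 4 and 2 animals per group. The median member difference was 0.0341, -0.0442 and 0.0416 in those runs, so its sign was not the same in each. For complex II it was 0.125, -0.0687 and 0.0911.

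In complex I, Ndufs6, an accessory subunit next to the catalytic arm, was the member with the smallest p. It lay at 12.83, 12.90 and 12.97 (lowest, median and highest) in ethanol and at 12.83, 12.95 and 13.04 in water, and the groups overlapped, although only 1 of 10 ethanol animals exceeded the water mean. The means were 12.898 ± 0.0493 (SD, n = 10) and 12.956 ± 0.0681, a difference of -0.06 (SE 0.0334, limma adjusted p = 0.458). Ndufv1, the flavoprotein that takes electrons from NADH, lay at 12.14, 12.24 and 12.31 in ethanol and 12.03, 12.21 and 12.29 in water (difference 0.05, SE 0.0353, limma adjusted p = 0.544). Its partner Ndufv2 differed by 0.06 (SE 0.0454, limma adjusted p = 0.565) and the accessory subunit gene Ndufa6 by 0.06 (SE 0.0389, limma adjusted p = 0.499). The groups overlapped for each of these genes. The 6 core subunits on the list (Ndufs1, Ndufs3, Ndufs7, Ndufs8, Ndufv1, Ndufv2), a grouping chosen after their values were seen, all had a higher mean in ethanol, with a median difference of 0.04, and their median was -0.0372 in the second run. Within the water group all 6 were lowest in animal 15. Without that animal 4 of 6 were higher in ethanol, the median was 0.021, and Ndufs7 and Ndufs8 were at -0.0107 and -0.0231.

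All 4 subunits of complex II, the succinate dehydrogenase that also serves the TCA cycle, were measured. Sdha, the flavoprotein with the succinate site, lay at 12.25, 12.35 and 12.44 in ethanol and at 12.02, 12.31 and 12.44 in water. The means were 12.362 ± 0.057 and 12.285 ± 0.113 (SD, n = 10 each), a difference of 0.08 (SE 0.0432, limma adjusted p = 0.450). The iron-sulfur subunit gene Sdhb differed by 0.03 (SE 0.0538, limma adjusted p = 0.844), and the membrane anchors Sdhd and Sdhc by 0.08 (SE 0.0635, adjusted p = 0.577) and -0.03 (SE 0.0617, adjusted p = 0.837). In all 4 genes the lowest array was water animal 15, and without that animal the median difference of the complex was 0.0126, with Sdha at 0.0463, Sdhd at 0.0363, Sdhb at -0.0111 and Sdhc at -0.0691.

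**Figure D2:**
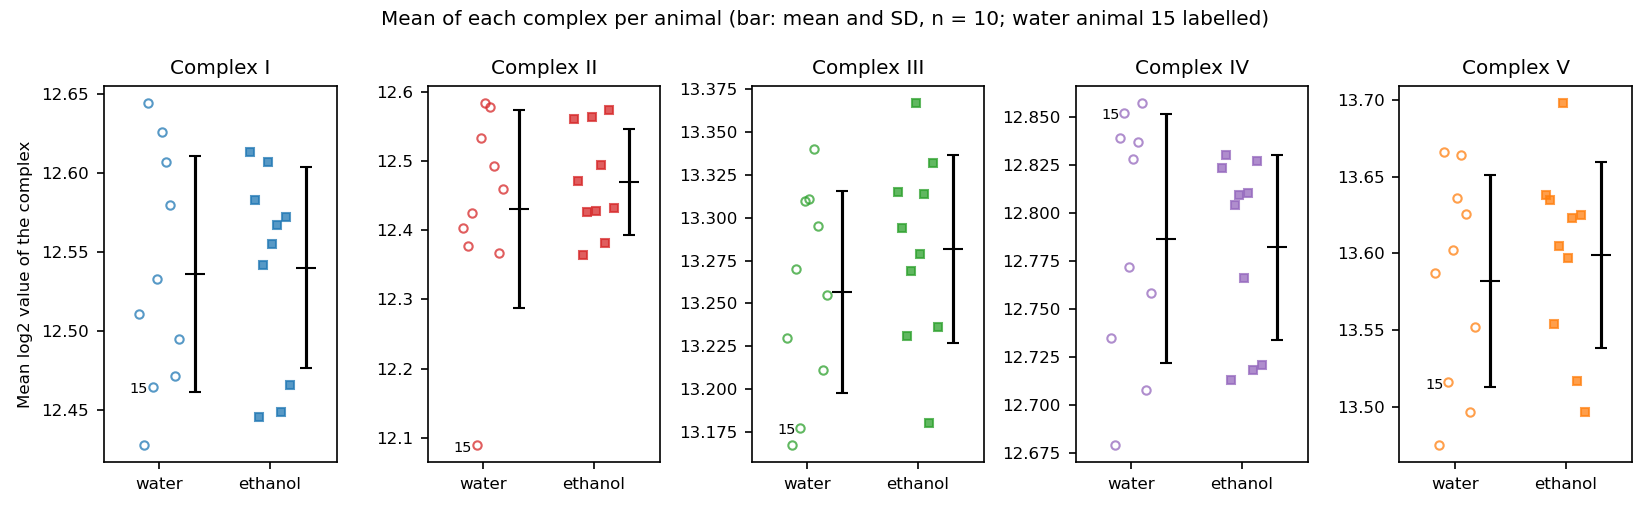
Mean log2 value of the members of each complex (vertical axes, separate scales, not starting at 0) in each animal of the water (open circles) and ethanol (filled squares) groups; bars give the mean and SD of 10 animals, and water animal 15 is labelled. The groups overlap in all 5 complexes, and for complex II animal 15 lies at 12.09, with the next water animal at 12.37.

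Complex III was led by its core proteins Uqcrc2 and Uqcrc1, which face the matrix. Uqcrc2 lay at 12.88, 12.99 and 13.14 in ethanol and at 12.76, 12.94 and 13.03 in water, with 9 of 10 ethanol animals above the water mean and overlapping groups (difference 0.08, SE 0.0421, limma adjusted p = 0.435). Uqcrc1 differed by 0.06 (SE 0.0409, limma adjusted p = 0.562) and Uqcrfs1, the Rieske iron-sulfur protein, by 0.05 (SE 0.0598, limma adjusted p = 0.761). Of the small subunits, Uqcr11 differed by 0.06 and the hinge protein gene Uqcrh by -0.03, with overlapping groups. Without water animal 15 the median difference of the complex was 0.0202, Uqcrc1 was at 0.0392 and Uqcrfs1, which is deepest in that animal, at -0.0025.

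In complex IV, Cox4i1, the ubiquitous form of the subunit that binds ATP, lay at 13.75, 13.83 and 13.97 in ethanol and 13.69, 13.78 and 13.89 in water (difference 0.06, SE 0.0362, limma adjusted p = 0.475). Cox6a1, the form of subunit 6a found outside muscle, differed by 0.03 (SE 0.0492, adjusted p = 0.801). Cox7a1, whose form is known from heart and muscle, had a mean of 7.257 ± 0.151 in ethanol and 7.313 ± 0.155 in water (SD, n = 10 each), just above the filter, and differed by -0.06 (SE 0.067, adjusted p = 0.740). Without water animal 15 Cox6a1 was at 0.00825 and Cox7a1 at -0.016. The groups overlapped for each. For Cox5a the single-symbol probe set lay at 8.90, 9.23 and 9.40 in ethanol and 8.96, 9.24 and 9.78 in water, and differed by -0.08 (SE 0.0787, limma adjusted p = 0.665), or by -0.0274 without water animal 15, its highest array. A second probe set carries the symbols Cox5a and LOC100361008 and so was not used. Its mean over all arrays was 13.791, against 9.247 for the single-symbol probe set. It differed by 0.05 (SE 0.0629, limma adjusted p = 0.761), and neither difference was called. The mitochondrially encoded COX1 and COX2, which are not members and were looked up after the other values were seen, differed by 0.01 and 0.03 (limma adjusted p = 0.867 and 0.589).

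In complex V, Atp5f1a and Atp5f1b encode the alpha and beta subunits of the catalytic F1 head. Atp5f1a lay at 13.50, 13.58 and 13.64 in ethanol and at 13.03, 13.52 and 13.60 in water, and all 10 ethanol animals were above the water mean although the groups overlapped. The means were 13.578 ± 0.0529 and 13.463 ± 0.174 (SD, n = 10 each), a difference of 0.12 (SE 0.0577, limma adjusted p = 0.401), and without water animal 15 it was 0.0671 (limma adjusted p = 0.444). Atp5f1b lay at 14.11, 14.21 and 14.27 in ethanol and 13.87, 14.15 and 14.27 in water (difference 0.07, SE 0.0406, limma adjusted p = 0.439), and it was 0.0439 without animal 15. The gamma subunit gene Atp5f1c differed by 0.05 and Atp5mc3, 1 of the genes for the proton-carrying c ring, by 0.05 as well (adjusted p = 0.527 and 0.536). The inhibitor gene Atp5if1, whose product blocks ATP hydrolysis by the enzyme, differed by -0.00263 (SE 0.0534, limma adjusted p = 0.990).

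Markers of cell types were not called between the groups, and most members of some lists lay to one side. The mean of 26 pan-neuronal markers was 12.389 ± 0.106 in ethanol and 12.294 ± 0.109 in water (SD, n = 10), with 24 of 26 higher in ethanol and no marker called. All 19 myelin markers were lower in ethanol (mean of the list 10.82 to 12.36 in ethanol and 11.49 to 12.72 in water), and the median of the list's differences was -0.338, -0.775 and 0.408 in the 3 accession runs, so its sign turned in the third. Of the other lists, 15 of 16 astrocyte markers, 4 of 4 choroid plexus and ependyma markers (list mean -1.42) and 9 of 9 meningeal fibroblast markers (-0.366) were lower in ethanol, and for striatal medium spiny neurons 15 of 16 lay above the water level. In the third run the median difference also turned for astrocyte (0.0121) and meningeal fibroblast markers (0.0787). It kept its sign in each run for choroid plexus and ependyma (-1.31 in the third) and striatal markers (0.289). In tissue of mixed cells, fewer cells of a type and less RNA per cell cannot be told apart, and the part of these lists in the members' differences was not tested, other than by fits with the neuronal or the myelin score as a covariate. The median member difference was 0.0143 with the neuronal score as covariate and 0.0351 with the myelin score, and 0 of 74 members were called in either fit.

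Other genes of mitochondrial energy metabolism were likewise not called in any of 6 lists. More members of these lists were higher than lower in ethanol: 16 of 17 for the TCA cycle and pyruvate dehydrogenase (median difference 0.0391), 28 of 38 for assembly factors (0.0365), 15 of 18 for regulators of mitochondrial biogenesis (0.0287), 14 of 18 for import and cristae (0.021), 9 of 13 for electron carriers (0.031) and 8 of 10 for ATP export, creatine kinase and porins (0.0453), where 57.8% of all probe sets were higher. Without water animal 15 the counts were 13 of 17 (median 0.03), 30 of 38 (0.0394), 13 of 18 (0.0306), 10 of 18 (0.0241), 8 of 13 (0.0264) and 7 of 10 (0.0194) in the same order. In the second accession run the median was -0.0098 for the TCA list, -0.0399 for ATP export, creatine kinase and porins and -0.000996 for import and cristae. It was positive there for the remaining lists. The smallest p belonged to Coq2, which attaches the side chain of ubiquinone, the carrier between complexes I or II and III (9.533 ± 0.101 against 9.329 ± 0.105, SD, n = 10 each, difference 0.20, SE 0.0481, limma adjusted p = 0.174). Tfb2m, the factor that starts mitochondrial transcription, differed by 0.15 (limma adjusted p = 0.291), Ttc19, which acts on the Rieske protein of complex III, by 0.16 (limma adjusted p = 0.292) and Dld, a shared subunit of the 2-oxo acid dehydrogenases, by 0.18 (limma adjusted p = 0.320).

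Across animals the members varied together. After each gene was centred on its group mean, the median Pearson r over the 2701 pairs of members was 0.454, and 90.6% of pairs were positive (20 arrays, a description, since all genes of an array share its RNA and its normalization). The median was 0.02 over all pairs of 10159 genes and 0.052 over pairs of 366 other genes of similar signal (12.59 to 13.74). Other gene lists also varied together, with medians of 0.451 for the TCA cycle and pyruvate dehydrogenase and 0.948 for myelin markers. Striatal medium spiny (0.621), excitatory (0.592), choroid plexus and ependyma (0.793) and meningeal fibroblast (0.869) markers were above the members too. The remaining lists were lower, from -0.028 (biogenesis regulators) to 0.341 (pan-neuronal). For the members the median was 0.470 in the water animals alone, 0.530 in the ethanol animals alone, 0.435 with arrays centred within accession runs and 0.453 with the 3′ to 5′ signal ratio, a measure of RNA quality, taken out. Leaving out 1 animal at a time gave 0.422 to 0.528. The first principal component of the members carried 47.6% of their variance, against 20.8% for all genes.

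**Figure D3:**
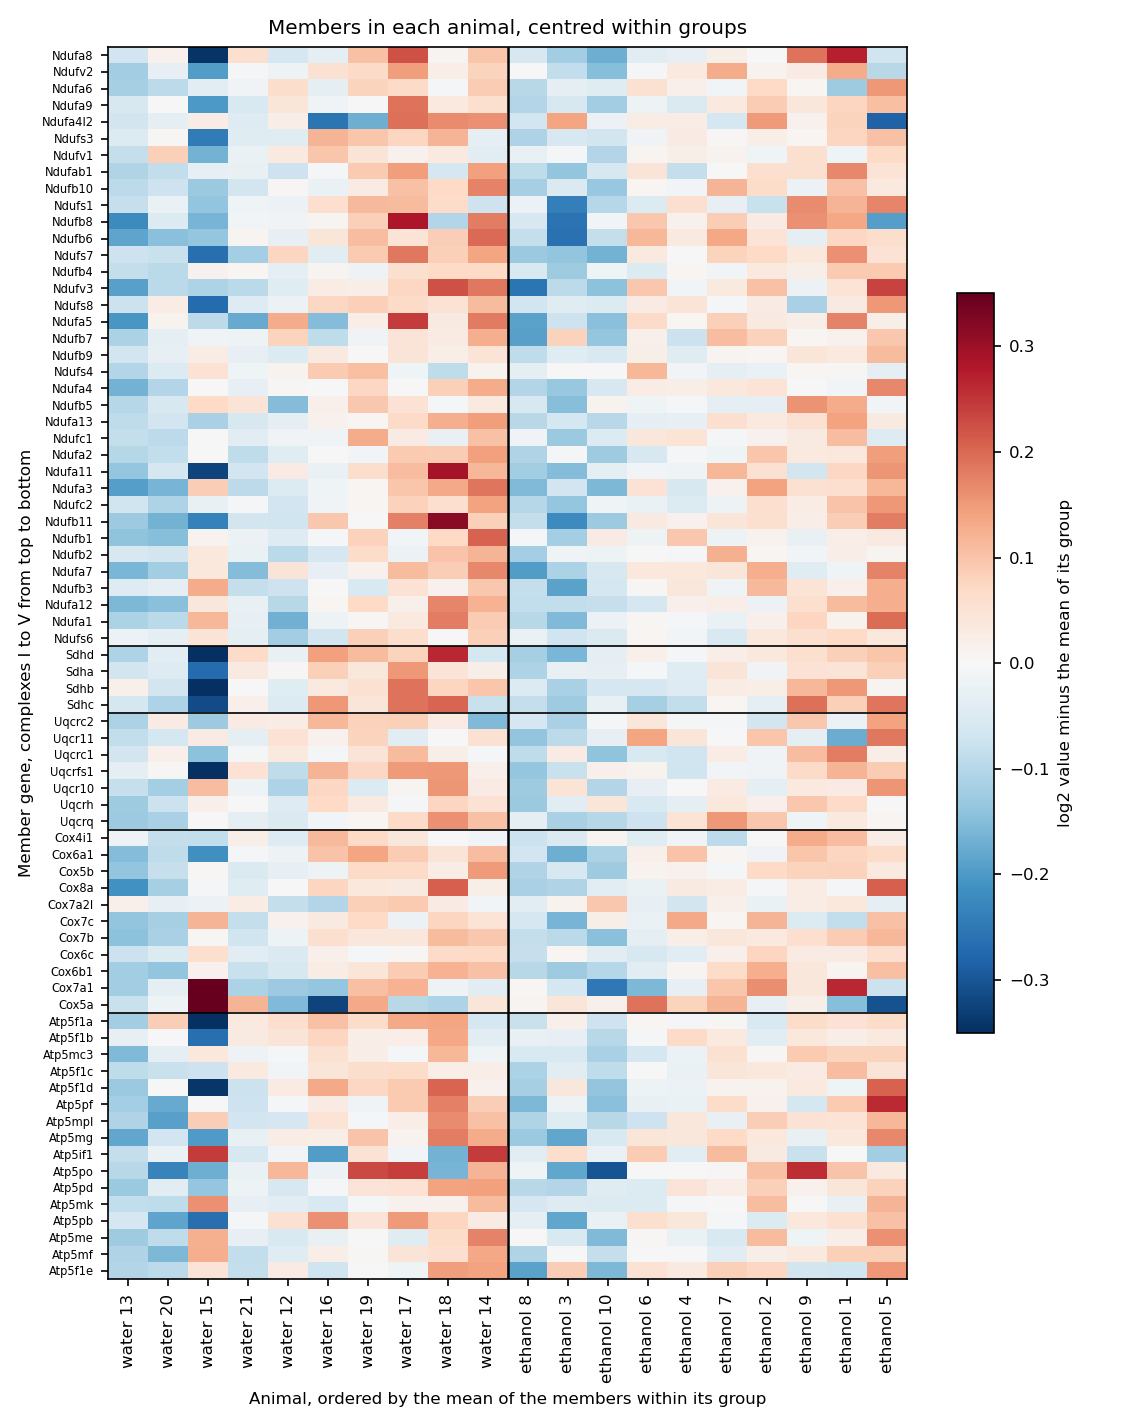
Log2 value of the 74 members (rows, grouped from complex I at the top to V at the bottom) in 10 water and 10 ethanol animals (columns, ordered within each group by the mean of the members), with the mean of the gene in its group subtracted. Most rows run from blue to red together within each group, and the column of water animal 15 departs from this, with 26 members below and 6 above all other water animals.

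The shared movement crossed the complexes. Pairs within a complex had a median r of 0.502 and pairs across complexes one of 0.435. Within complexes it was 0.856 for the 6 pairs of complex II, 0.518 for complex I, 0.459 for complex V, 0.358 for complex IV and 0.284 for complex III. Between complexes the medians ran from 0.331 (III with IV) to 0.496 (II with V). The members closest to the rest were Cox7b (mean r with the other members 0.599, positive with 71 of 73), Ndufv3 (0.583), Cox6b1 (0.583), Ndufa13 (0.580) and Atp5pd (0.580), which encode accessory subunits of complexes I and IV and a stalk subunit of complex V.

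A few members stood outside this over all 20 arrays, in part through the 3 arrays that stood apart. Cox5a had a mean r of -0.208 with the others and was positive with 18 of 73. Its r with the mean of the members was -0.308, and that of the probe set with both symbols was 0.387. Atp5if1, the inhibitor of complex V, had a mean r of -0.025, Ndufa4l2, a hypoxia-responsive relative of Ndufa4, 0.069, and Cox7a2l, a factor of respiratory supercomplexes, 0.082. Ndufs4, an accessory subunit of complex I, had 0.092 and Cox7a1 0.179. Without the 3 arrays the mean r was -0.028 for Cox5a, 0.239 for Atp5if1, 0.190 for Ndufa4l2, 0.096 for Cox7a2l, 0.301 for Ndufs4 and 0.431 for Cox7a1, while that of Cox7b was 0.665. Cox7a2l and Ndufs4 also varied little, with within-group SDs of 0.0551 and 0.0582, while Ndufa4l2 and Cox7a1 lay just above the filter.

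The genes outside the members whose values followed the mean of the members most closely over the 20 arrays were named by r among 10085 genes, a ranking made after the data were seen. They were Smim20 (r = 0.915), Timm8b (0.907), Atox1 (0.892), Mrpl20 (0.892), Prdx5 (0.886) and Mrpl40 (0.881). Timm8b encodes a chaperone of the mitochondrial intermembrane space, Mrpl20 and Mrpl40 subunits of the mitochondrial ribosome and Prdx5 a peroxiredoxin. The strongest opposite values were those of Ctdspl2 (r = -0.845), Matr3 (-0.823), Nptxr (-0.822), Neurod6 (-0.817) and Bhlhe22 (-0.816). Neurod6 and Bhlhe22 encode transcription factors of excitatory forebrain neurons, and Nptxr a neuronal pentraxin receptor.

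Within groups, no member's slope on the neuronal markers passed the test. In a limma fit with a slope per group on the neuronal score, 0 of 74 members were called in water (background 2.77%, 516 probe sets), 0 in ethanol (background 2.26%, 420 probe sets) and 0 for the difference between the slopes (background 0.00537%, 1 probe set). Of the 26 neuronal markers themselves only 4 were called in water and 6 in ethanol, so the slope of a marker was itself seldom called. At an unadjusted p under 0.05 the members had 2.7% against 19% of all probe sets in water, and 4.05% against 17.5% in ethanol. The median slope of the members was -0.213 in water, with 20 of 74 positive, and 0.0307 in ethanol, with 40 of 74 positive (median SE of a slope 0.3 and 0.309).

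The correlation of single members with the neuronal score gave 148 relations (74 members in each group), of which 0 passed after Benjamini-Hochberg adjustment (smallest adjusted permutation p 0.842 for Pearson and 0.947 for Spearman), and 7 and 3 had an unadjusted p under 0.05. The median r was -0.236 in water (20 of 74 members positive) and 0.046 in ethanol (40 of 74). These medians rest on a few animals. Without the 2 animals farthest from the median neuronal score in each group they were -0.184 (23 positive) and -0.447 (9 positive). Without the arrays that stood apart, 15 and 18 in water and 5 in ethanol, they were -0.00537 (36 positive) and 0.315 (58 positive). So no direction of the members with the neuronal score held over these omissions in ethanol. In water the negative direction was all but lost without animals 15 and 18. Ndufa8, an accessory subunit of complex I, had the highest mean over both groups. In ethanol its r was 0.783 (permutation p = 0.0101, adjusted 0.842, rho = 0.491, permutation p = 0.155), which was 0.134 without the 2 animals farthest from the median neuronal score (animals 1 and 9), so the value rests on those, and 0.820 without animal 5. In water its r was 0.179 (permutation p = 0.538, rho = 0.503, permutation p = 0.142). Uqcrc1 had r = 0.680 in ethanol (permutation p = 0.0296, adjusted 0.842, rho = 0.564, permutation p = 0.0961), 0.0342 without the same 2 animals, 0.852 without animal 5, and 0.0877 in water (permutation p = 0.756, rho = 0.224, permutation p = 0.536). Atp5po, which encodes the stalk subunit OSCP, had 0.346 in water and 0.502 in ethanol (permutation p = 0.358 and 0.135, rho 0.176 and 0.164, permutation p = 0.629 and 0.653), and without the 2 farthest animals of each group both were negative (-0.351 and -0.00664), whereas without the arrays that stood apart they were 0.0235 and 0.635.

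At the other end, Atp5f1e, the epsilon subunit of F1, had r = -0.650 in water (permutation p = 0.029, adjusted 0.842, rho = -0.661, permutation p = 0.0433) and the same value, -0.650, without animals 18 and 19, but -0.360 without animals 15 and 18. In ethanol it had -0.346 (permutation p = 0.327, rho = -0.358, permutation p = 0.314), -0.163 without animals 1 and 9 and -0.131 without animal 5. Cox7c had -0.635 in ethanol (permutation p = 0.0484, adjusted 0.842, rho = -0.782, permutation p = 0.0105), -0.629 without the 2 farthest animals, and -0.341 in water (permutation p = 0.362, rho = -0.430, permutation p = 0.219), -0.614 without them. Cox8a had -0.593 in water (permutation p = 0.0902, rho = -0.273, permutation p = 0.446), -0.350 without them, and -0.390 in ethanol (permutation p = 0.268, rho = -0.321, permutation p = 0.368), -0.787 without them. Without the arrays that stood apart, Cox7c was at -0.556 in ethanol and -0.0537 in water, and Cox8a at 0.0743 and -0.0402. Over all 10 animals of a group, each relation named had an adjusted permutation p of at least 0.842, and without the 2 farthest animals the smallest adjusted p over the 148 relations was 0.253.

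The list that ran most against the members was that of excitatory neurons of the cortex and basolateral amygdala, which border the CeA. Over 20 group-centred arrays the median r of the members with the mean of its 9 markers was -0.567, against -0.039 for all probe sets, and 73 of 74 members were negative, the exception being Cox5a. The median was -0.552 in water, -0.655 in ethanol, -0.630 without ethanol animal 5 and water animals 15 and 18 and -0.595 with arrays centred within accession runs. Slc17a7, the vesicular glutamate transporter of such neurons, ranged from 6.28 to 9.68 over the arrays, and the mean of the list from 9.34 to 11.07 in ethanol and from 9.29 to 10.965 in water. The median r was 0.335 with the myelin list, 0.480 with microglia, 0.391 with endothelial and mural cells, 0.038 with astrocytes, 0.004 with GABAergic neurons and 0.065 with striatal medium spiny neurons. Without the 3 arrays that stood apart these were 0.361, 0.586, 0.617, 0.078, 0.161 and 0.038 in the same order, and the median r with the pan-neuronal list turned from -0.111 to 0.190. For the same 6 lists in the same order, the medians were 0.473, 0.624, 0.255, 0.153, 0.001 and -0.03 in water. In ethanol they were 0.228, 0.182, 0.633, -0.051, -0.013 and 0.112, so several differed widely between the groups. Whether the share of neighbouring tissue in each dissection takes part in the shared movement of the members was not tested.

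Among lists of mitochondrial genes the members followed import and cristae most closely (median r 0.620, 72 of 74 positive), then electron carriers (0.556), assembly factors (0.513), the TCA cycle (0.409) and biogenesis regulators (0.396). ATP export, creatine kinase and porins came last (0.307). That was below the cell type lists of microglia (0.480), endothelial and mural cells (0.391), meningeal fibroblasts (0.340) and myelin (0.335). These values are over the same 20 arrays. Without the arrays that stood apart, the medians were 0.677 for import and cristae, 0.668 for assembly factors and 0.564 for electron carriers. They were 0.55 for the TCA cycle, 0.522 for biogenesis regulators and 0.516 for ATP export, creatine kinase and porins. This last list was then above myelin (0.361) and meningeal fibroblasts (0.305), and still below microglia (0.586) and endothelial and mural cells (0.617). All of these values are descriptions, with no test.

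**Figure D4:**
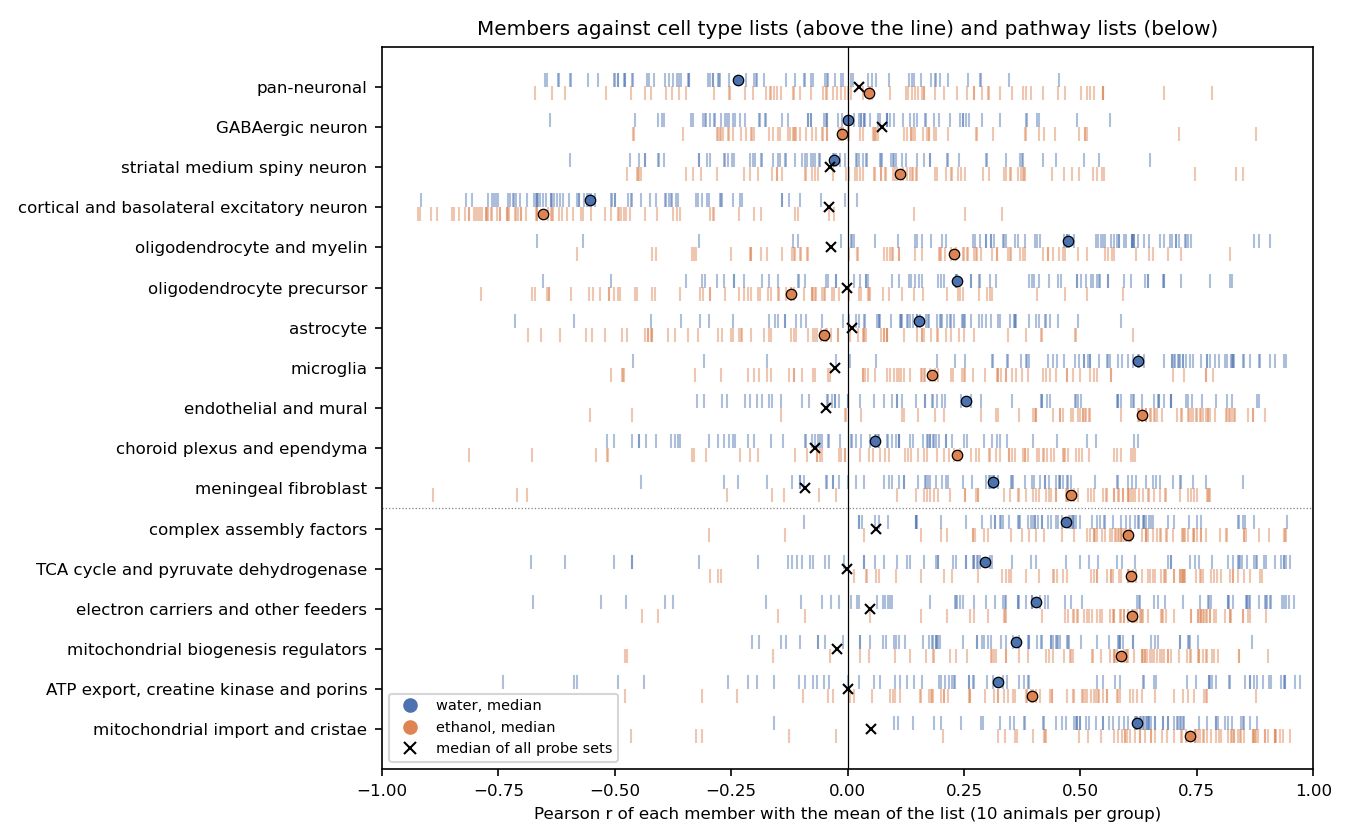
Pearson r (horizontal axis) of each of the 74 members (ticks) with the mean of each cell type list (above the dotted line) and pathway list (below it), in 10 water and 10 ethanol animals; circles are medians of the members and crosses the median of all probe sets over 20 group-centred arrays. The members lie mostly to the left for excitatory neurons of the cortex and basolateral amygdala (medians -0.552 and -0.655) and to the right for the mitochondrial lists.

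Without the 3 arrays that stood apart, 0 of 74 members were called and the median difference was -0.000367, and the median pairwise r was 0.543. Water animal 15 had its own pattern among the members: on their second principal component (17.3% of the variance) it scored -12.98, with the other arrays between -4.74 and 3.78. It lay below all 9 other water animals in 26 members and above them in 6. The 26 held all 4 subunits of complex II and all 6 core subunits of complex I, with 12 of 36 members of complex I, 2 of 7 of complex III, 2 of 11 of complex IV and 6 of 16 of complex V. The 6 were Ndufb3, Cox5a, Cox7a1, Cox7c, Atp5if1 and Atp5mk. For Cox5a this holds for the single-symbol probe set only. On the probe set with both symbols animal 15 was at 13.65, inside the range of the other water animals (13.48 to 13.98).

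The deepest members in animal 15 were Uqcrfs1 (12.29, other water animals 12.63 to 12.87), Atp5f1a (13.03, others 13.34 to 13.60) and Sdhd (11.73, others 12.04 to 12.42), which were 0.49, 0.49 and 0.47 below the mean of the other water animals. Atp5mk, a small subunit of complex V, was at 14.57 there, with the others at 14.32 to 14.52. The array had a log2 3′ to 5′ signal ratio of 1.48, the second highest in its group, whose range was 0.97 to 1.52. Whether RNA quality takes part in this pattern was not tested.

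Cox8b, a subunit 8 gene known from heart and muscle and 1 of the members below the filter, was the member that varied most. It lay between 5.0 and 5.5 in 15 animals and between 6.91 and 9.99 in the other 5. Those 5 were water animals 15 (7.26), 16 (8.27), 18 (9.99) and 21 (6.91) and ethanol animal 5 (9.29), and they were also the 5 with the highest Ttr, the transthyretin gene that marks choroid plexus. Ttr was 14.80 to 15.94 in them and 6.36 to 12.34 in the other 15. The animals thus fall into separate clusters, so no correlation is given. The group means of Cox8b were 5.756 ± 1.25 in ethanol and 6.469 ± 1.62 in water (SD, n = 10 each), and its difference without the filter was -0.71 (SE 0.589, limma adjusted p = 0.693). The other 5 members below the filter differed by -0.12 (Cox6b2) to 0.03 (Cox7b2) in the same fit, with limma adjusted p of 0.684 to 0.868.

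**Figure D5:**
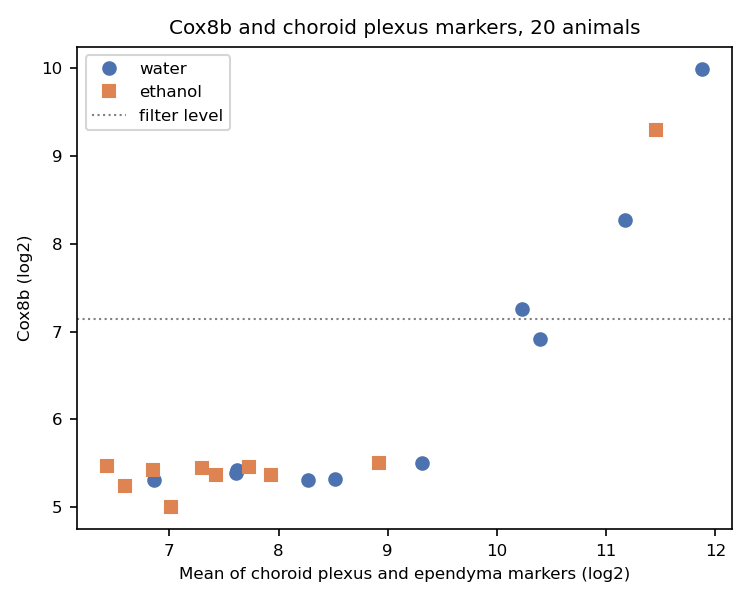
Cox8b (vertical axis, log2) against the mean of the choroid plexus and ependyma markers (horizontal axis, log2) in 10 water (circles) and 10 ethanol (squares) animals, with the filter level dotted at 7.14. Cox8b lies at 5.0 to 5.5 in 15 animals and at 6.91 to 9.99 in the 5 animals with the highest Ttr.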

How the data were processed

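Total RNA of the CeA was hybridised to 1 Affymetrix array per animal (10 ethanol, 10 water). The authors deposited log2 values for 31099 probe sets made with RMA, per the submitters' processing notes (the sources used here give no version). RMA as a method corrects background, quantile-normalizes arrays and summarises probes, which evens out overall differences between arrays. Array medians were 7.92 to 7.97, there were no missing values, and scanner files were not used here, so background per probe is unknown and the number of arrays limits precision. All 20 value columns were matched to labels.

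From these values, 57 control probe sets were left out and probe sets with a mean above the 40th percentile were kept (18625). Gene names came from GEO's platform table (20826 probe sets with 1 symbol, 436 with several, 9780 with none), and all 80 members matched RefSeq by identifier with unchanged symbols; 7 probe sets of the same families with several symbols were left out. Ndufa4 was counted in complex I by its symbol, although later work counts it as a subunit of complex IV. With Ndufa4 moved there, the median difference was 0.00298 for complex I and -0.00235 for complex IV. limma 3.58.1 in R 4.3.3 fitted group means (threshold 0.05, two-sided, Benjamini-Hochberg over all kept probe sets), and slopes on the mean of the neuronal markers. Correlations used Python 3.11.15, numpy 2.4.6 and scipy 1.17.1, with 100000 permutations, and figures matplotlib 3.10.9. The scripts were tested on simulated data. The named members were, in each complex, the 4 with the smallest p, the 3 highest and 3 lowest in mean correlation with the neuronal score, and those whose probe sets differ in sign. The members and lists were chosen with earlier results of these data known; subgroups of core subunits, the pairwise correlations, values without water animal 15 for lists, and their alternatives were chosen after seeing the data. Alternatives changed the filter, centring, normalization, weights, variance model, accession-run block, covariates, probe sets and animals.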

Additional observations from a re-analysis of the deposited data

Results flagged for a closer look

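Within groups of 10 animals, the gap of the highest or lowest animal to its neighbour was set against the range of the group (Dixon's ratio, at its 95% critical value), for 66 groups of values, and 8 exceeded it. Chance gives about 1 in 20 for a single group. The groups share arrays, and the means of complexes share genes with single members, so the count cannot be set against that rate. All flags except that of Cox8a were of the same array, water animal 15. In the water group, animal 15 was the lowest for Sdha (ratio 0.489, 12.02 with the next at 12.22), Sdhb (0.538, 12.31 and 12.61), Atp5f1a (0.548, 13.03 and 13.34), Atp5f1b (0.561, 13.87 and 14.09), Ndufa8 (0.491, 13.16 and 13.44) and the mean of complex II (0.562, 12.09 and 12.37). The same animal was the highest for Cox7a1 (0.477, 7.67 and 7.43). In the ethanol group, animal 5 was the highest for Cox8a (0.553, 14.49 and 14.31). Animals 15 and 5 were also among the 3 arrays with the lowest mean correlation to the rest, and the cause was not tested.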

How the results depend on the processing

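The count of called members stayed at 0 for ethanol against water, for the ethanol slope and for the slope difference under every alternative run. For the water slope it was 1 without a filter on low values: Cox6b2, a member below the filter (slope -2.16, SE 0.492, limma adjusted p = 0.03). The median member difference ran from -0.0219 (cyclic loess) to 0.0351 (myelin score as covariate), and over the fits without 1 animal from -0.0119 to 0.0135, so its sign is not fixed by these data. Signs of single differences, none of them called, turned as follows. With cyclic loess Cox8a was -0.0184 and Ndufv3 -0.0139. With arrays centred on their median Atp5po was 0.0037 and Cox7c 0.00386. With array weights Sdhb was -0.00628 and Cox7c 0.0302. With the neuronal score as covariate Atp5f1e was 0.00908, Cox7c 0.0368 and Ndufa7 0.0046. With the myelin score Sdhc was 0.0473, Atp5po 0.0402 and Cox7c 0.00734. With all probe sets averaged Ndufa7 was 0.0333 (its other probe set differed by 0.102), while the other probe set of Ndufv3 differed by -0.0067. Without ethanol animal 5 and water animals 15 and 18 Sdhb was -0.00791, Cox7c 0.00997 and Ndufv3 -0.00271. Without 1 animal the ranges were -0.0319 to 0.0307 for Atp5po, -0.0182 to 0.0151 for Cox7c, -0.0147 to 0.0321 for Cox8a, -0.017 to 0.0377 for Ndufv3 and -0.0111 to 0.05 for Sdhb. The cause of these turns was not tested. No paired analysis was possible because no animal number occurs in both groups.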
